A study of Homo sapiens with 3 samples.

Results

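The proteasome is the large protease that degrades ubiquitin-tagged proteins in the cytosol and nucleus. Its barrel-shaped core particle stacks outer rings of alpha subunits (*PSMA* genes) on inner rings of beta subunits (*PSMB* genes), some of which carry the cutting sites. A regulatory particle caps the barrel: its base holds a ring of ATPases (*PSMC* genes) that unfold the substrate, and its lid (*PSMD* genes) removes the ubiquitin chain. Interferon induces immunoproteasome subunits that take the place of the catalytic beta subunits and supply peptides for MHC class I. The genes described here are the rows of the deposited expression table whose symbol is PSM, then a letter from A to G, then digits. This rule found 48 genes among 23131 rows.

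The values compare 2 libraries of HCT-116, an established colon carcinoma cell line whose genotype is labelled APC wild-type, CTNNB1ΔSer45, so that both libraries carry the same degradation-resistant β-catenin. In the anti-*APC* siRNA library, cells received a pool of siRNA against *APC* in 2 transfections on consecutive days, and RNA was taken 48 hours after the later one. The control library is titled untransfected, while its treatment label says that it received transfection reagent without siRNA. A scrambled siRNA library of the same design was not analysed here, so an effect of siRNA delivery cannot be told apart from one of *APC* silencing. There was 1 library per condition, from transiently transfected cells of 1 line, so no difference given here has a replicate check and none was tested.

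Levels are FPKM, in which fragments are counted relative to transcript length and to library depth, so that they can be compared between genes. Where a gene is given a pair of values, that of the silenced (anti-*APC* siRNA) library comes first and that of the untransfected control library follows. Differences are log2 ratios of anti-*APC* siRNA over untransfected on the scale of FPKM + 1, for genes with a mean of at least 1 FPKM over both libraries. *APC* itself had 3.43 FPKM in the silenced library against 9.15 FPKM in the control, a log2 ratio of -1.19. The table gives no read counts. The most frequent ratio among genes under 0.3 FPKM placed the value of 1 read 0.13 higher on the log2 scale in the anti-*APC* library, and transcript lengths placed the depth near 22900000 reads there and 25100000 in the untransfected library. Counting intervals (95%) below rest on these estimates, cover counting error only, and leave out the spread between cultures. Among 9 epithelial markers, *EPCAM*, *KRT8*, *KRT18* and *KRT19* had at least 170 FPKM in both libraries, whereas *VIL1*, *CDX1* and *CEACAM5* were at or near 0. Of the 6 epithelial markers that passed the filter, *CDH1* had the lowest log2 ratio, -0.61, past 1.5-fold, with 12.1 and 19.0 FPKM. All 6 had lower values with anti-*APC* siRNA, as did 58.6% of all genes that passed, and the 9 summed to 1294 and 1649 FPKM. The part of this shift in the differences described here was not tested. Leukocyte, fibroblast and endothelial markers had at most 0.182 FPKM, other than *CD68* (5.01 and 8.91 FPKM) and *COL1A1* (3.08 and 2.85 FPKM). In bulk RNA, fewer cells that express a gene and less RNA per cell cannot be told apart.

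Of the 48 proteasome genes, 44 passed the filter, and 0 of the 44 differed by 1.5-fold in either direction. Over all 12197 genes that passed, 2.32% were higher and 4.31% lower by at least 1.5-fold. The largest difference upward was 1.12-fold (*PSMC6*) and the largest downward 1.35-fold (*PSME3*). At a limit of 0.32 on the log2 scale, 0 members were higher, against 5.91% of all genes, and 3 members (6.82%) were lower, against 14.8%. The remaining 41 members (93.2%) stayed within 0.32, as did 79.3% of all genes. Most genes tested were less abundant than the members. At a mean of at least 30 FPKM, a level reached by 41 of the 44 members, 234 of 3449 genes were higher and 332 lower at this limit. Past 1.5-fold, 108 of the 3449 were higher and 124 lower. *PSMG4*, 1 of the 3 lower members, had a mean of 16.8 FPKM and is not among the 41. The median log2 ratio was -0.05 for the members and -0.05 for all genes tested, so that the members' median was 0.00 once that of all genes was subtracted. Higher values with anti-*APC* siRNA were seen in 18 members (40.9%) and lower values in 26, while over all genes 41.4% were higher and 58.6% lower. The share of members in each direction was thus near that of all genes tested, but all 44 members lay above the median level of those genes. Of the 3449 genes with a mean of at least 30 FPKM, 1739 were higher and 1710 lower, with a median log2 ratio of 0.002.

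**Figure D1:**
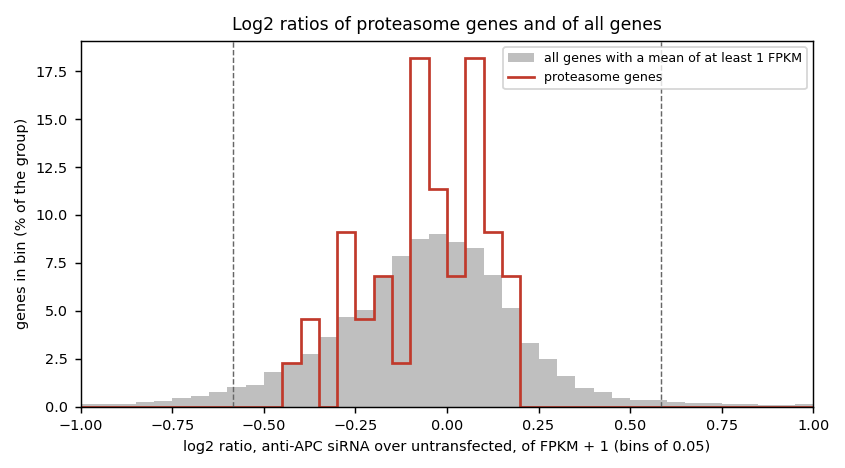
Share of genes (vertical axis, percent of each group) by log2 ratio of anti-APC siRNA over untransfected on the scale of FPKM + 1 (horizontal axis, bins of 0.05), for the 12197 genes tested (grey) and the 44 proteasome genes that passed the filter (red line). Dashed lines mark 1.5-fold, and 2.45% of all genes lie beyond the plotted range; the members lie between -0.43 and 0.16, inside both lines.

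Proteasome transcripts were abundant. The median of the members' mean level was 122 FPKM, against 13.7 FPKM for all genes tested, and 40 of the 44 were above percentile 75 of those genes. The 5 most abundant members were all core subunits: *PSMA4*, *PSMA7*, *PSMB1*, *PSMB4* and *PSMB7*. Across the 44 members, log2 FPKM in one library followed that in the other with Pearson's *r* = 0.992, a description of genes quantified by the same procedure and not of replicates. Subunits that occur together in 1 complex did not have equal transcript levels. In the untransfected library the alpha ring genes spanned 5.69-fold and the constitutive beta ring genes 5.39-fold, while the lid genes spanned only 1.66-fold. The same spans with anti-*APC* siRNA were 6.07-fold, 4.60-fold and 1.98-fold.

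**Figure D2:**
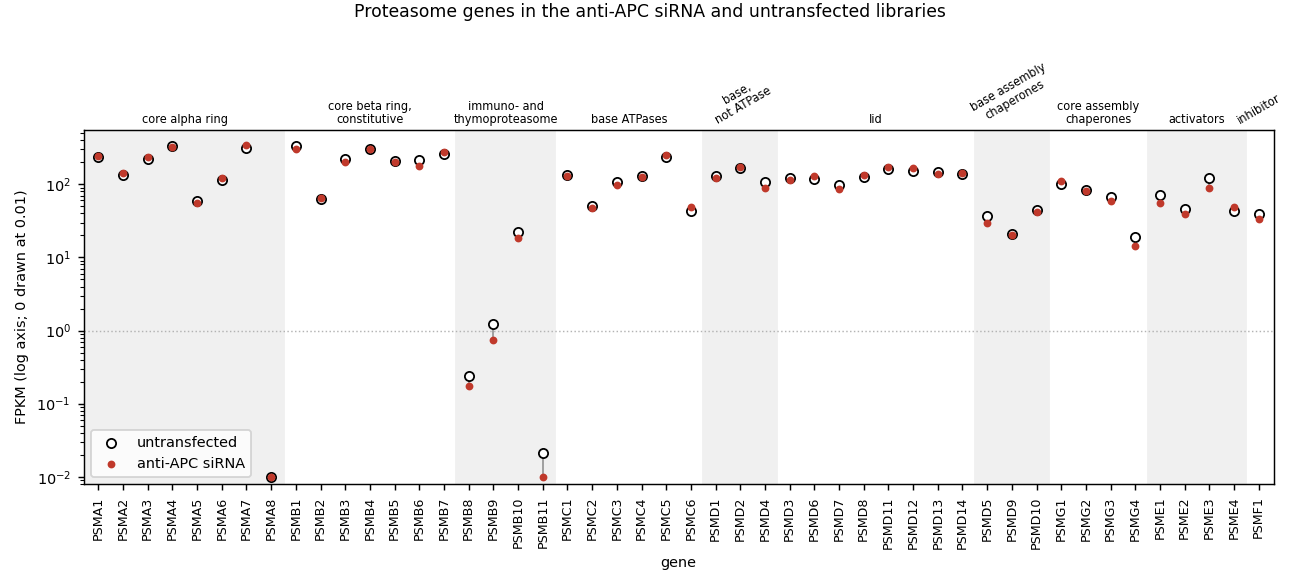
FPKM (vertical log axis, values of 0 drawn at 0.01) of all 48 proteasome genes (horizontal axis, ordered by subunit class) in the untransfected library (open circles) and the anti-APC siRNA library (red points), with 1 library per condition. The dotted line is 1 FPKM; PSMA8, PSMB8 and PSMB11 lie below it in both libraries, PSMB9 crosses it, and nearly all pairs of points overlap.

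The alpha ring forms the gate of the barrel. Of its 7 broadly expressed genes, 5 were higher with anti-*APC* siRNA, against 41.4% of all genes tested. At a mean of at least 30 FPKM, which all 7 reached, 1739 of 3449 genes were higher. The class median log2 ratio was 0.08. *PSMA7* had 339 FPKM in the silenced library against 308 FPKM in the control, a log2 ratio of 0.14. *PSMA2* had 144 and 133 FPKM, in the same order, a log2 ratio of 0.11. *PSMA4*, the most abundant member, had 325 and 335 FPKM, a log2 ratio of -0.04 that became positive when the median of all genes was subtracted. *PSMA1* (246 and 239 FPKM), *PSMA3* (234 and 221 FPKM) and *PSMA6* (121 and 113 FPKM) were each slightly higher. *PSMA5*, the least abundant of the 7, had 55.9 and 58.9 FPKM. *PSMA8*, the form of the testis, was listed at 0 in both libraries.

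Among the 7 constitutive beta ring genes, 3 were higher and 4 lower, beside 41.4% higher over all genes tested, and the class median was -0.05. *PSMB6*, which carries the caspase-like site (chromosome 17 of GRCh37, 4699439 to 4701797), stood lowest in the class. It had 175 FPKM in the silenced library against 214 FPKM in the control, a log2 ratio of -0.29 with a counting interval from -0.35 to -0.22. The genes of the other cutting sites differed less. *PSMB7*, of the trypsin-like site (chromosome 9, 127115744 to 127177723), had 273 and 262 FPKM, a log2 ratio of 0.06. *PSMB5*, of the chymotrypsin-like site (chromosome 14, 23485752 to 23504439), had 202 and 209 FPKM, a log2 ratio of -0.05 that was 0.00 once the median of all genes was subtracted. The structural subunit *PSMB1* had 299 and 334 FPKM, a log2 ratio of -0.16, while *PSMB4* had 302 and 301 FPKM. The remaining structural subunits parted, with 205 and 224 FPKM for *PSMB3* and 65.6 and 62.0 FPKM for *PSMB2*.

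Immunoproteasome subunits were rare beside their constitutive counterparts in both libraries. *PSMB10*, the counterpart of *PSMB7* (chromosome 16, 67968409 to 67970767), had 18.6 FPKM in the silenced library against 21.9 FPKM in the control, which is 6.40% and 7.73% of the summed level of the pair. Its log2 ratio was -0.22, with a counting interval from -0.41 to -0.04. *PSMB9*, the counterpart of *PSMB6* (chromosome 6, 32811913 to 32827628), had 0.751 and 1.24 FPKM, or 0.427% and 0.577% of its pair. The mean of *PSMB9*, 0.997 FPKM, lay just under the filter. *PSMB8*, the counterpart of *PSMB5* (chromosome 6, 32808494 to 32812456), had 0.174 and 0.238 FPKM, or 0.086% and 0.114% of its pair. *PSMB11*, which is confined to the thymic cortex, was listed at 0 in the silenced library and at 0.0214 FPKM in the control, the value of about 1 read.

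All of *PSMB8*, *PSMB9* and *PSMB10* thus had the lower value in the anti-*APC* library, but for the rare pair the depth does not settle a direction. Without a pseudocount the log2 ratio of *PSMB9* was -0.73, with a counting interval from -1.57 to 0.12. That of *PSMB8* was -0.45, with an interval from -2.18 to 1.27, since its values correspond to an estimated 4.48 and 6.71 reads. The levels of *PSMB8* and *PSMB9* have a further limit. Both genes lie in the MHC region, and the authors' table places them on an alternative haplotype contig of hg19, as it does 210 rows of chromosome 6. Only 2 rows are placed on chromosome 6 itself between *HLA-F* and *TAPBP* (GRCh37, 29690552 to 33282061). How reads that match several haplotypes were counted is not given in the sources used here, and its part in the low levels of these 2 genes was not tested. *PSMB8* also shares its listed locus with *TAP1*, which had 13.2 FPKM in the control and a log2 ratio of -0.12.

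In the base, the 6 ATPase genes had a median log2 ratio of -0.04, which was 0.01 when the median of all genes was subtracted. *PSMC6* had 49.0 FPKM in the silenced library against 43.7 FPKM in the control, a log2 ratio of 0.16 that was the highest of all members. *PSMC5*, the most abundant ATPase gene, had 254 and 237 FPKM, a log2 ratio of 0.10. It is listed at 1 locus with *FTSJ3*, which had a log2 ratio of 0.13. The other 4 lay between -0.09 and -0.02 and spanned a range of levels, from 46.8 and 49.7 FPKM for *PSMC2* to 130 and 132 FPKM for *PSMC1*. Among the base subunits that are not ATPases, the scaffold genes *PSMD1* and *PSMD2* had log2 ratios of -0.08 (121 and 128 FPKM) and 0.04 (172 and 168 FPKM). *PSMD4*, a ubiquitin receptor, had 89.4 and 107 FPKM, a log2 ratio of -0.26 with a counting interval from -0.33 to -0.19. *PSMC1* has 13 annotated pseudogenes and *PSMD4* has 1, and the division of reads between a gene and such copies was not tested.

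The 8 lid genes had a median log2 ratio of 0.06, with 5 higher and 3 lower, beside 41.4% higher over all genes tested. At a mean of at least 30 FPKM, which all 8 reached, 1739 of 3449 genes were higher. *PSMD14*, the deubiquitinase of the lid, had 143 FPKM in the silenced library against 137 FPKM in the control, a log2 ratio of 0.06. *PSMD6* was highest in the class with 131 and 118 FPKM, a log2 ratio of 0.15. *PSMD7*, the partner of *PSMD14*, was lowest with 85.8 and 96.8 FPKM, a log2 ratio of -0.17. The 2 genes of this pair therefore had log2 ratios of opposite sign. The scaffold subunits *PSMD11* (170 and 160 FPKM) and *PSMD12* (164 and 154 FPKM) were higher, as was *PSMD8* (132 and 127 FPKM), and *PSMD3* (115 and 123 FPKM) and *PSMD13* (140 and 148 FPKM) were lower. Summed over base and lid, the genes had 2168 FPKM in the silenced library against 2164 FPKM in the control. For the 14 constitutive core genes the sums were 2986 and 3014 FPKM.

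**Figure D3:**
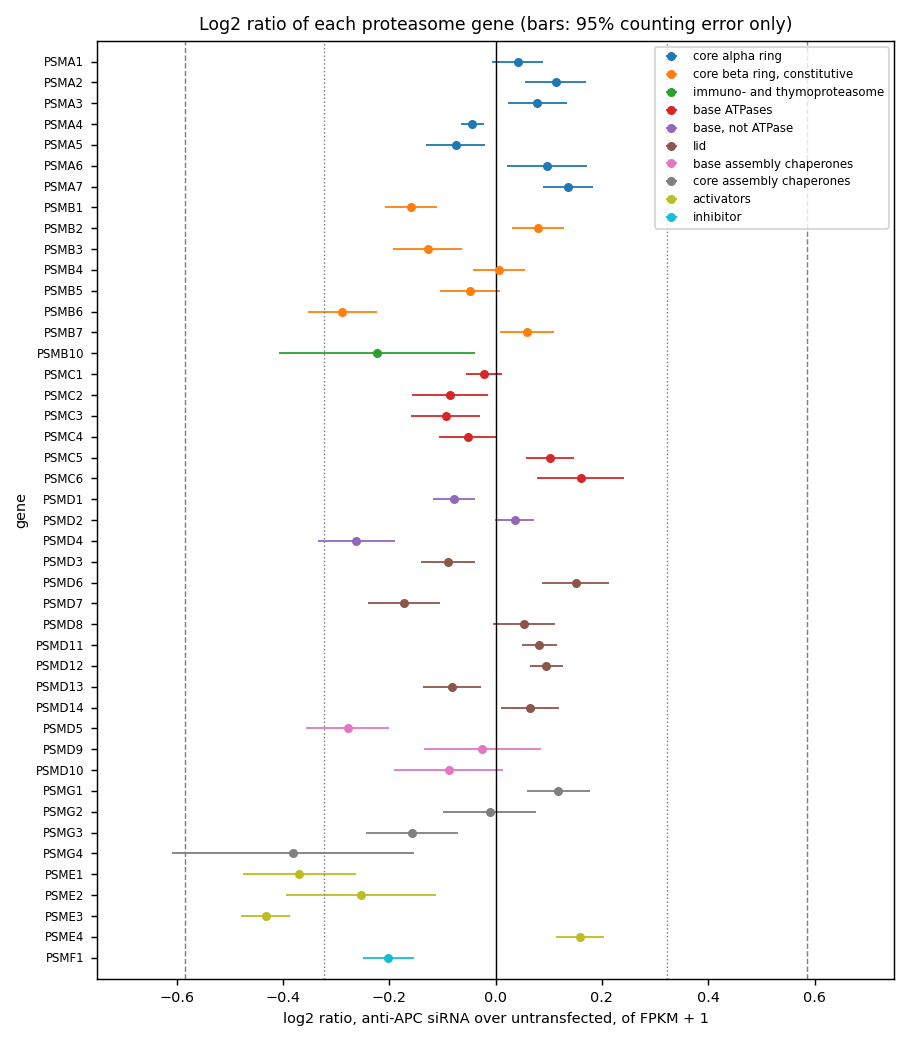
Log2 ratio of anti-APC siRNA over untransfected on the scale of FPKM + 1 (horizontal axis) for the 44 proteasome genes that passed the filter (vertical axis), coloured by subunit class, from 1 library per condition. Bars are 95% counting intervals and leave out variation between cultures, dotted lines mark 0.32 and dashed lines 1.5-fold; PSME3, PSMG4 and PSME1 are the 3 genes beyond a dotted line.

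Chaperones that assemble the particles leave the finished complex. The 3 base chaperone genes with a PSMD name had lower values with anti-*APC* siRNA, as did 58.6% of all genes tested. *PAAF1*, a further base chaperone outside the naming rule, had the higher value there, with a log2 ratio of 0.38. *PSMD5* had 29.8 and 36.4 FPKM, a log2 ratio of -0.28 with a counting interval from -0.36 to -0.20. *PSMD10*, also known as gankyrin, and *PSMD9* had log2 ratios of -0.09 and -0.02, with counting intervals that include 0, and *PSMD9* turned positive when the median of all genes was subtracted. Of the core chaperone genes, *PSMG1* had 111 and 102 FPKM, a log2 ratio of 0.12, although its product works as a dimer with that of *PSMG2*, which had 81.9 and 82.5 FPKM. *PSMG3* and *PSMG4* encode the other dimer. *PSMG3* had 59.9 and 66.9 FPKM, a log2 ratio of -0.16. *PSMG4* (chromosome 6, 3231637 to 3303607) had 14.5 FPKM in the silenced library against 19.2 FPKM in the control, a log2 ratio of -0.38. It is the least abundant member that passed the filter, and its counting interval ran from -0.61 to -0.15.

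Activators open the core in place of the regulatory particle. Of their 4 genes 3 had lower values with anti-*APC* siRNA, as did 58.6% of all genes tested. At a mean of at least 30 FPKM, which all 4 reached, 1710 of 3449 genes were lower. The class median log2 ratio was -0.31. *PSME3*, the nuclear activator (chromosome 17, 40976402 to 40995777), had 89.1 FPKM in the silenced library against 121 FPKM in the control. Its log2 ratio of -0.43 was the lowest of all members, with a counting interval from -0.48 to -0.39, and 8.63% of all genes tested were lower still. *PSME1* and *PSME2*, the interferon-inducible pair that assembles into 1 ring, lie near each other on chromosome 14 (24605372 to 24608176 and 24612571 to 24616779). *PSME1* had 54.6 and 70.9 FPKM, a log2 ratio of -0.37 with a counting interval from -0.48 to -0.26. *PSME2* had 38.7 and 46.3 FPKM, a log2 ratio of -0.25 with an interval from -0.40 to -0.11. The table lists *PSME1* at 1 locus with *FAM158A*, which had a log2 ratio of -0.18, and *PSME2* has 6 annotated pseudogenes. *PSME4*, a large nuclear activator of another family, went the other way with 48.5 and 43.3 FPKM, a log2 ratio of 0.16. *PSMF1*, which encodes an inhibitor of the core, had 33.5 and 38.7 FPKM, a log2 ratio of -0.20. Of all 44 members, 34 (77.3%) had a counting interval without 0, 14 higher and 20 lower. This held for 56.4% of the 10140 genes tested with a transcript length and reads in both libraries, 22.8% higher and 33.6% lower. Counting intervals narrow with abundance, and at a mean of at least 30 FPKM the share was 71.9% of 2844 genes (36.1% higher and 35.8% lower) and 78.0% of 41 members.

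Of the 5 members known to be induced by interferon, *PSMB8*, *PSMB9*, *PSMB10*, *PSME1* and *PSME2*, all had the lower value with anti-*APC* siRNA, by log2 ratios from -0.37 to -0.22 in the 3 that passed the filter. This grouping was noted after the values were seen. Over all genes tested 58.6% were lower, and 1710 of the 3449 with a mean of at least 30 FPKM. Outside the grouping, *PSME3* (-0.43) and *PSMG4* (-0.38) lay below the range of these 3. *PSMB6* (-0.29), *PSMD5* (-0.28) and *PSMD4* (-0.26) lay within it, and all other members that passed lay above it. Promoter windows from RefSeq on GRCh38.p14, 250 bases before to 50 after the annotated start, were matched for 42 of the 48 members. Those not matched were *PSMA7* (log2 ratio 0.14), *PSMB1* (-0.16), *PSMB6* (-0.29), *PSMB7* (0.06), *PSMD4* (-0.26) and *PSMG3* (-0.16). The core of the interferon-stimulated response element, GAAA, any 2 bases and again GAAA on either strand, was in the windows of 7 members (16.7%) and of 4.38% of all 27305 genes. In 5 of the 7 the letters were the same, GAAAGCGAAA or its reverse complement, which 0.125% of all genes have. *PSMA4* and *PSMB4* have the core with other middle letters, and their log2 ratios were -0.04 and 0.01. The 5 windows with GAAAGCGAAA or its reverse complement are shown from 100 bases before the start to 30 after it. They are on the strand of the gene, with the match in capitals. They belong to *PSMG4* and to the interferon-inducible members other than *PSMB9*. The choice was made with the log2 ratios in view, so the low values of these members are no separate result. *PSME3*, with the lowest log2 ratio, has no such core in its window.
PSMB8 (chr6:32844018-32844147, minus strand): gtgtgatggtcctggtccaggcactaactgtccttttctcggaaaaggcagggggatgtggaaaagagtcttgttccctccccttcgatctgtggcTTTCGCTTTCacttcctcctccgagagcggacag
PSMB10 (chr16:67936821-67936950, minus strand): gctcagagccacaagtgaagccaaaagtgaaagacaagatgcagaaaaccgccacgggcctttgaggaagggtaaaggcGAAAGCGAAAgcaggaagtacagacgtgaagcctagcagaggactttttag
PSME1 (chr14:24136094-24136223, plus strand): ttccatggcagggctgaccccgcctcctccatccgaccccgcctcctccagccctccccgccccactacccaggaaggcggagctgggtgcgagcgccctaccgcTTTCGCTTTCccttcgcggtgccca
PSME2 (chr14:24146581-24146710, minus strand): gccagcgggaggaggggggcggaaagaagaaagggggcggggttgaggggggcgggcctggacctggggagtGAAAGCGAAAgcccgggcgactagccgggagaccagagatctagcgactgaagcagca
PSMG4 (chr6:3258847-3258976, plus strand): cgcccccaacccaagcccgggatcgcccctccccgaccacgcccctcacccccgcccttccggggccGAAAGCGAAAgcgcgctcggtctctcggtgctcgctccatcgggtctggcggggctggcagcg

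A match is a description of letters and not of a bound site. The exact form GAAAGCGAAA was searched after these windows had been seen. The 4 members with it that passed had a median log2 ratio of -0.31, which restates the values that led to the search. Of the 18 other genes tested that have it, 13 had lower values and the median was -0.11. Of the 8220 genes with a window but without it, 58% had lower values and the median was -0.04. Log2 ratios of the 18 ran from -0.46 to 0.17, and the difference in medians was not tested. For the more general core the medians were -0.03 in 298 genes and -0.04 in 7944. The core of the antioxidant response element, TGACNNNGC, through which *NFE2L1* and *NFE2L2* drive proteasome genes, was in the windows of 15 members (35.7%) and of 16.1% of all genes. The 14 of these members that passed the filter had a median log2 ratio of -0.05, and the 24 matched members without it had -0.01. The gamma-activated site TTCNNNGAA was found in 19.0% of members and 9.38% of all genes, CCAAT in 47.6% and 39.7%, and CACGTG in 7.14% and 8.77%.

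Genes that act with the proteasome were described from lists chosen by function. Among 15 partners of the particle in the table, 0 differed by 1.5-fold and the median log2 ratio was 0.00. *POMP*, which matures the core, had 145 FPKM in the silenced library against 144 FPKM in the control. *PAAF1*, the base chaperone named above, stood highest with 16.6 and 12.5 FPKM. Of 8 genes that control proteasome transcription 0 passed 1.5-fold, and *NFE2L1* itself had 65.9 and 69.5 FPKM. The 6 ubiquitin and E1 genes had 0 past 1.5-fold and a median log2 ratio of 0.04, and the ubiquitin gene *UBB* had 1449 and 1419 FPKM.

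Antigen processing genes, which receive the peptides of the immunoproteasome, had 0 of 13 past 1.5-fold and a median log2 ratio of -0.06. *HLA-C* had 104 and 143 FPKM, a log2 ratio of -0.46, and *TAPBP* had -0.34, whereas *B2M* had -0.01. All 8 of the listed genes in the MHC region are placed on alternative haplotype contigs, and without them the list's median was -0.01. Of the 129 rows on such contigs that passed the filter, 90 were lower, with a median log2 ratio of -0.10. Of 11 genes of interferon control 0 passed 1.5-fold, 6 were higher and 5 lower, and the median log2 ratio was 0.02. *IFNGR2*, a chain of the interferon-gamma receptor, was lowest with 21.0 and 30.1 FPKM, a log2 ratio of -0.50. *IFNAR2*, a chain of the type I interferon receptor, was highest with 10.2 and 8.48 FPKM, a log2 ratio of 0.24. Complexes that share domains with the lid had medians of 0.07 for the 9 COP9 signalosome genes (5 higher, 4 lower) and 0.05 for the 13 eIF3 genes (8 higher, 5 lower). Medians above 0 were not particular to these complexes. They were also seen for ubiquitin and E1 genes (0.04), genes that control proteasome transcription (0.03) and genes of interferon control (0.02). *COPS7A*, at 30.5 and 46.4 FPKM, was the only gene of all 7 lists past 1.5-fold.

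**Figure D4:**
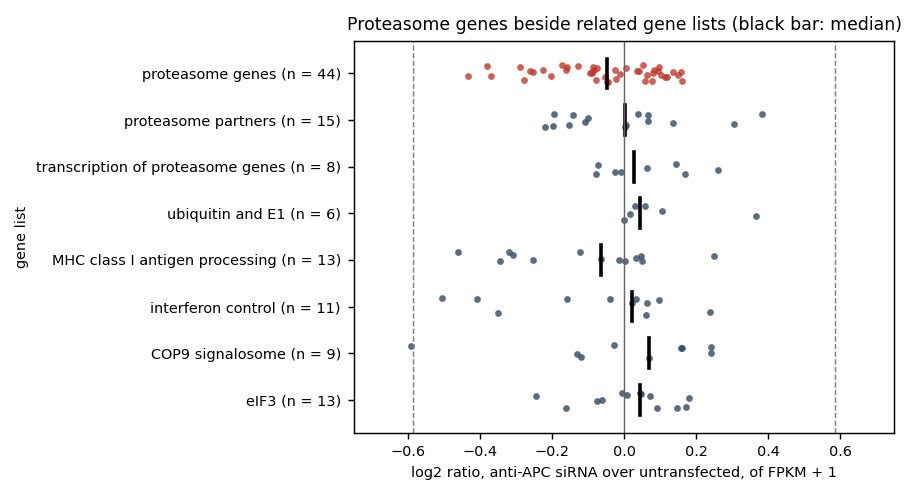
Log2 ratio of anti-APC siRNA over untransfected on the scale of FPKM + 1 (horizontal axis) for the proteasome genes (red) and 7 lists of related genes (dark points; 1 point per gene that passed the filter, spread vertically for legibility), with the median of each list as a black bar. Dashed lines mark 1.5-fold; the medians lie between -0.06 and 0.07, and COPS7A at -0.59 is the only point beyond a line.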

How the data were processed

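RNA from 3 single-read TruSeq libraries was sequenced by the authors, who assigned reads to transcripts with Cufflinks and deposited FPKM from Cuffdiff for 2 of the libraries, on hg19. The versions, the aligner, the annotation and the use of strand are not given in the sources used here. The table's log ratios, test statistics, p-values and q-values of the authors' own comparison were not used. In 269 rows marked as failed both values are 0.

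Proteasome genes were selected by symbol, and the members and lists were chosen with earlier results of these data known. Log2 ratios used a pseudocount of 1 FPKM and genes with a mean of at least 1 FPKM over both libraries. With 1 library per condition no test was run, and a gene was counted as different when past a fold of 1.5. Genes named are all members, with fuller values for *APC*, catalytic subunits and their counterparts, the 5 highest and 5 lowest log2 ratios, the 5 most abundant members, members under 1 FPKM, and list genes past 1.5-fold. Other genes of the lists and loci were chosen for naming with their values in view.

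Read numbers were estimated from low values: of 2622 rows above 0 and under 0.3 FPKM in both libraries, 46.3% had a ratio within 0.005 (log2) of whole numbers up to 5 after one shift. Depth used canonical transcript lengths of GENCODE on GRCh37, which carries the same coordinates as hg19, so read numbers and intervals depend on those lengths. The ratio of 1 read and the calls past 1.5-fold were tested on simulated data, while the depth estimate and the counting intervals were not. Values of some list genes are not reported here. Motifs were searched in RefSeq promoter windows. Alternatives were pseudocounts, filters, folds, centring and rows alone at their locus. Scripts ran under Python 3.11.15 (numpy 2.4.6; pandas 2.3.3; scipy 1.17.1).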

Additional observations from a re-analysis of the deposited data

How the results depend on the processing

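The count of 0 members past 1.5-fold in either direction held with a pseudocount of 0.1 FPKM, with no pseudocount, with no filter, with a mean of at least 10 FPKM, after the median of all genes tested was subtracted, for rows alone at their locus and at a fold of 2. Each setting was changed alone. With filter and pseudocount both left out, *PSMB9* would be past 1.5-fold lower, at a log2 ratio of -0.73 with a counting interval from -1.57 to 0.12. At the smaller fold of 0.32 on the log2 scale the number of lower members was 3. Subtracting the median of all genes moved 2 class medians by more than counting error, to -0.030 for the base subunits that are not ATPases and to -0.15 for the inhibitor, and changed the sign of 4 single members, all within 0.05 of 0. The shift of 0.05 exceeded the counting error of 11 members, *PSMA4*, *PSMA7*, *PSMC1*, *PSMC5*, *PSMD1*, *PSMD2*, *PSMD11*, *PSMD12*, *PSME3*, *PSME4* and *PSMF1*, and *PSME3* remained lowest at -0.38. It brought the members' median from -0.05 to 0.00, and the class medians of the alpha ring to 0.13 and of the lid to 0.11. Among the 36 members alone at their locus, the constitutive beta ring had a median of -0.09 in place of -0.05 and the core chaperones -0.16 in place of -0.08. The other settings changed no member by more than 0.023. Leaving out a replicate was not possible with 1 library per condition, and alternatives with scrambled siRNA as the control were not run. No paired analysis was possible because each condition has 1 library. Differences between cultures cannot be judged from these values.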
